A study of Nothobranchius furzeri with 10 samples.

Results

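The 100 genes described here had the steadiest RNA levels among the well expressed genes of 10 brain libraries from the turquoise killifish Nothobranchius furzeri, an annual fish with a very short life that serves as a model of ageing. They were selected on measured values. Counts of each gene were divided by the library total and multiplied by 1000000 (CPM), genes averaging 100 to under 1000 CPM over the 10 libraries were kept, and the 100 with the lowest coefficient of variation (CV, the SD over the mean) were taken. These are 100 of the 2362 genes in that range of abundance (4.23%), out of 26739 genes listed. All 10 libraries were total brain RNA of male fish of the GRZ strain, an inbred laboratory line, aged 10 weeks, and all carry the label swim-tunnel, a flow chamber used here for physical exercise. No group of unexercised fish was analysed here, so the libraries form 1 group and there is no contrast between conditions. Library totals ran from 22958779 to 28223263 counts. The labels do not say that the libraries came from separate fish, so every SD below is the scatter among these 10 libraries and could be technical in origin, and in a whole brain fewer cells of a type and less RNA per cell cannot be told apart.

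Every tissue expresses genes for basic upkeep, such as transcription, protein synthesis and turnover, energy supply and the cytoskeleton, at levels that tend to differ little between individuals. Such genes are used as internal references against which the levels of other genes are read. A level in CPM is itself relative, since a library total is shared by all genes: when a few abundant genes take more of the counts, every other gene appears lower. The identifiers of these data could not be linked to gene names, as 0 of the 26739 identifiers matched in a RefSeq table of 38438 killifish genes. The 100 genes are therefore described by level, spread and length. Their functions, and brain marker genes against which to check the tissue, are not reported here, and only 4 identifiers are given: the 2 genes of lowest CV and the 2 of highest level among the 100.

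The steadiest genes kept nearly the same level in all 10 libraries. Their CV ran from 1.87% to 3.81%, with a median of 3.46%, while the median over all 2362 genes of the range was 8.29%. These values chose the genes and are given as a description. The highest of the 10 libraries was between 1.06 and 1.16 times the lowest in every one of the 100 genes, with a median of 1.11 times against 1.29 times over the range. In 27 of the 100 the highest library was at most 1.1 times the lowest, which held for 1.14% of the genes of the range, all of them in the list. Of the 1000 values that 100 genes have in 10 libraries, 881 lay within 5% of the mean of their gene and 1000 within 10%. Over the whole range of abundance 43.2% of values lay within 5% and 72.0% within 10%. The widest departures from a gene's own mean among the 100 were 8.96% above it in library 4 and -8.87% in library 10.

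The list has no natural edge. The gene at place 99 averaged 120 ± 4.56 CPM (SD, n = 10) with a CV of 3.808%, and the gene at place 100 averaged 157 ± 5.97 CPM with a CV of 3.809%. The first gene outside averaged 124 ± 4.73 CPM with a CV of 3.814%, and the next 691 ± 26.4 CPM with a CV of 3.816%. The step from the last gene inside to the first gene outside was 0.00473 percentage points of CV. In all, 331 genes of the range had a CV under 5%, the 100 included, and 1497 of the 2362 had a CV under 10%.

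**Figure D1:**
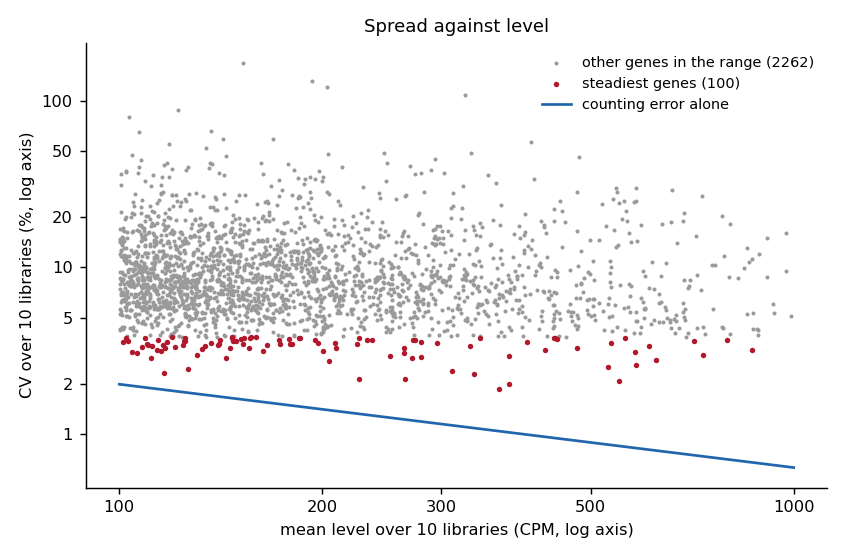
Coefficient of variation (CV, SD over mean, in percent) over the 10 libraries against mean level in CPM, both on log axes, for the 100 steadiest genes (red) and the other 2262 genes of the same range of abundance (grey). The blue line is the CV that counting error alone would give; the 100 genes lie between 1.87% and 3.81%, all above that line.

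The gene Nfu_g_1_014920 was the steadiest of the range by library total. Its level was lowest in library 6 at 355 CPM, had a median of 366 CPM and was highest in library 4 at 378 CPM, from between 8247 and 10098 counts per library. The 8 other libraries filled the space between 359 and 371 CPM, so library 4 was the only one above 371 CPM. On average Nfu_g_1_014920 was at 366 ± 6.84 CPM (SD, n = 10), a CV of 1.87%, where counting error alone would give 1.04%. With the counting variance taken off the variance, a CV of 1.55% was left.

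The gene Nfu_g_1_011404 came next, at almost the same level. It ran from 368 CPM in library 1 through a median of 380 CPM to 388 CPM in library 10, averaging 378 ± 7.56 CPM (SD, n = 10) at a CV of 2.0%. Libraries 1, 7 and 3 were its 3 lowest and libraries 10 and 9 its 2 highest. Set against each other within a library, which needs no library total, the level of Nfu_g_1_014920 was between 0.942 and 0.997 times that of Nfu_g_1_011404. The ratio averaged 0.968 ± 0.0199 (SD, n = 10) at a CV of 2.06%, and counting error in both genes would give 1.46%.

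The most abundant of the 100, Nfu_g_1_010811, stood at place 30 of the list. It had 826 CPM in library 6, a median of 868 CPM and 903 CPM in library 7, averaging 868 ± 27.6 CPM (SD, n = 10) at a CV of 3.19%. Its levels in libraries 1, 2, 7 and 9 lay between 888 and 903 CPM, and those in the other 6 between 826 and 873 CPM. The second most abundant, Nfu_g_1_003964, stood at place 77 with 764 CPM in library 8, a median of 784 CPM and 843 CPM in library 2, a mean of 797 ± 29.3 CPM and a CV of 3.68%. The same 4 libraries 1, 2, 7 and 9 were its highest, between 807 and 843 CPM, and the other 6 lay between 764 and 787 CPM. Over the 10 libraries both genes had a Pearson correlation of 0.853 on the log2 scale, against 0.440 for the 2 steadiest genes. Neither pair stands for the list. The mean correlation between pairs was 0.124 among the 25 most abundant of the 100, 0.0906 among the 25 least abundant and 0.0835 over the 100. These are descriptions of pairs that share library totals, and the cause of the shared profile was not tested.

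**Figure D2:**
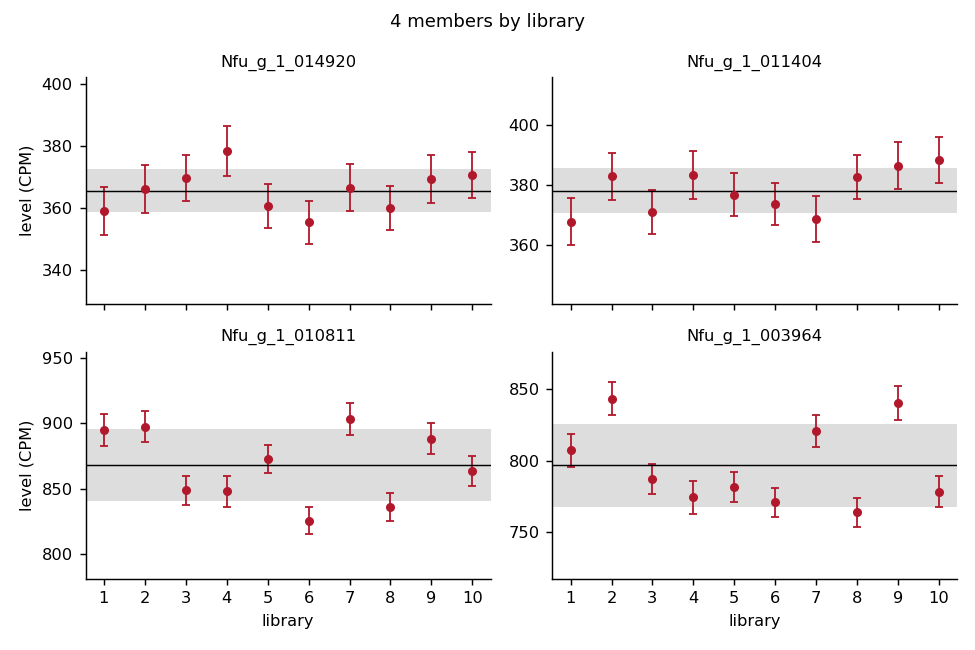
Level in CPM by library for the 2 genes of lowest CV (top row) and the 2 most abundant of the 100 (bottom row); points are libraries with 95% counting intervals, the line is the mean and the band 1 SD over 10 libraries, and each vertical axis covers about 10% either side of the mean. Libraries 1, 2, 7 and 9 are the 4 highest for both genes of the bottom row, at 888 to 903 CPM and 807 to 843 CPM.

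The spread of the 100 genes was set beside the spread that sampling of reads alone would give, as a description. Counting (Poisson) error corresponds to a CV between 0.676% and 1.98% at the levels and totals of the 100 genes, with a median of 1.49%. With counting error taken off, a CV between 1.4% and 3.70% was left, with a median of 3.08%, against a median of 8.14% over the range. The variance between libraries was 5.25 times the counting variance in the median gene of the list and 33.4 times in the median gene of the range. None of the 100 genes had a variance at or below the counting variance, and neither did any other gene of the range (0%). Among the 100 genes chosen under TMM scaling 1 gene did, as did 1 among those chosen without library 2 and 1 among those chosen without library 6. The variance was under 2 times the counting variance in 2 of the 100 genes (0.0847% of the range), under 5 times in 47 (2.88%) and under 10 times in 83 (11.7%). These counts rest on the same spread that chose the genes, and intervals for counting error treat reads as independent molecules.

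The 100 genes lay at different distances from the counting limit. The gene at place 7 came nearest to that limit, with 112 CPM in its lowest library, a median of 116 CPM and 122 CPM in its highest, an average of 117 ± 2.70 CPM (SD, n = 10), and a variance 1.58 times the counting variance. The abundant gene Nfu_g_1_003964 lay farthest from it, at 27.1 times, with a counting CV of 0.706%. Mean levels of the list ran from 101.3 to 868 CPM, with a median of 179 CPM against 165 CPM over the range. When the range was divided by level into 5 classes of 472 or 473 genes, 18, 15, 21, 20 and 26 of the 100 genes fell into them from the lowest class to the highest. The median counting CV was 1.91% in the lowest class and 0.980% in the highest.

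CVs as low as these were also measured outside the range of abundance. Of 51 genes with a mean of 1000 CPM or more, 7 (13.7%) had a CV at or below that of the 100th gene, the lowest being 2.58%. Of 2538 genes from 50 to under 100 CPM, 62 (2.44%) did, with a lowest CV of 2.01%, and of 7134 genes from 10 to under 50 CPM, 44 (0.617%) did, with a lowest of 2.36%. Counting error alone gives a median CV of 2.4% from 50 to under 100 CPM and of 4.13% from 10 to under 50 CPM. In the lower of these classes the median counting CV is thus above the 3.81% of the 100th gene, so a spread as low as that of the list was mostly not detectable there at this depth. Counting error grows as the level falls, so every gene under 50 CPM has a counting CV above 2.4%. The lowest CV there, 2.36%, is therefore below counting error and cannot be read as greater steadiness. The 2.01% from 50 to under 100 CPM is also below the median counting CV of its class. Within 100 to under 1000 CPM the name steadiest holds by construction for levels scaled to the library total. It does not hold across all abundances or, for many of the genes, under other scalings (below).

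Genes chosen for steady CPM have to move little against the library total as a group, so the levels by library describe the choice. Together the 100 genes took 2.52% ± 0.0268 of the counts of a library (SD, n = 10), from 2.48% in library 8 to 2.57% in library 2. The median gene of the list was at 1.02 times its own mean in library 2 and at 0.982 and 0.985 times in libraries 1 and 8. In library 2, 71 of the 100 genes were above their own mean (56.5% over the range), in library 1 33 (42.4%) and in library 8 31 (47.2%). The other 7 libraries had between 40 and 61 of the 100 above. Library 8 was the lowest of the 10 in 24 of the 100 genes and in 9.44% of the range, and library 1 in 23 and in 26.7%. Library 2 was the lowest in 0 of the 100 and in 1.82% of the range. Library 10 was the highest of the 10 in 21.6% of the genes of the range and in 16 of the 100, and library 6 in 7.79% and in 19. The lists and the range share these libraries, and none of these shares was tested.

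**Figure D3:**
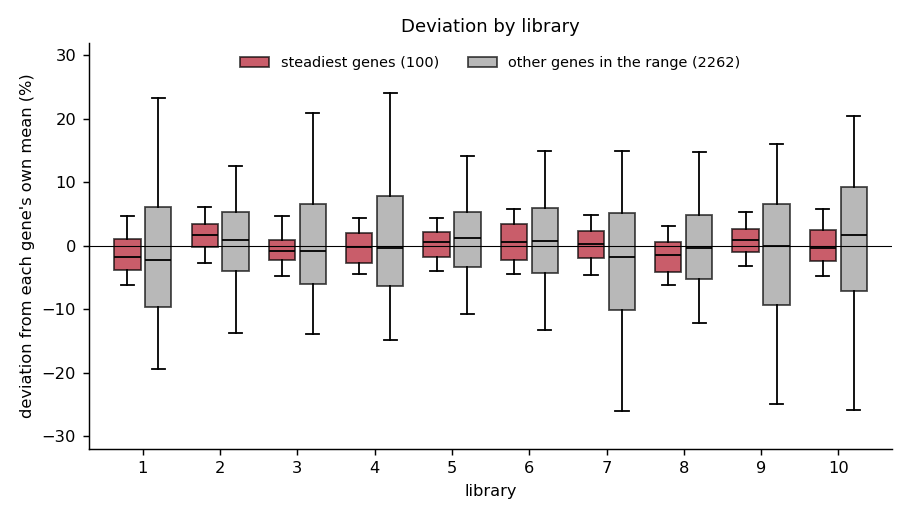
Deviation of each gene from its own mean over 10 libraries, in percent, by library, for the 100 steadiest genes (red) and the other 2262 genes of the range (grey); boxes show quartiles and median, whiskers the 5th and 95th percentile of genes. The medians of the 100 genes run from 0.982 times the gene's mean in library 1 to 1.02 times in library 2. Over all genes of the range, red and grey together, the fewest lie within 5% of their mean in library 10 (31.6%) and library 1 (33.2%).

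A lone outlying library raises the CV, so the rule itself tends to leave out genes that have one. By Dixon's criterion (the gap between the extreme library and its neighbour, as a share of the span of all 10, exceeds the 95% critical value) 2 of the 100 genes had a lone library, against 5.8% of the genes of the range, and in both it was library 10. Chance alone passes this criterion in about 1 in 20 groups, and nothing is read from the difference. The gene at place 38 had 168 CPM in library 10 and between 151 and 159 CPM elsewhere. The gene at place 88 had 99.5 CPM in library 10 and between 108 and 116 CPM elsewhere.

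Genes chosen by the same rule from only 9 libraries were steadier in the library left out than the range as a whole. Each library was left out in turn, the same rule was applied to the other 9, and the level in the library left out was compared with the mean of the 9. The median absolute log2 ratio in the 100 genes so chosen was between 0.0376 in library 5 and 0.0850 in library 1. Over all genes of the range it was between 0.0666 in library 5 and 0.129 in library 1. It was lower in the chosen genes in 10 of 10 libraries, with the range between 1.23 times (library 2) and 2.50 times (library 9) the chosen genes. The 10 choices share most of their libraries and most of their genes, so they are not 10 independent repeats and no p is given. They are also not the list described here, of which each held between 65 and 85 genes.

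The advantage was smaller than the spread used for the choice would show. For the 100 genes chosen with all libraries, the same ratio of a library to the other 9 had a median of 0.0382 over the libraries (2.68%), and for genes chosen without the library it had a median of 0.0581 (4.11%), against 0.101 (7.27%) for the range. The value was higher without the library in the choice in 10 of 10 libraries. In library 10, 78 of 100 genes chosen without it lay within 10% of the mean of the others (54.4% of the range), and in library 1 85 of 100 (55.3%). In library 3, 100 did (68.1% of the range), and in the other 7 libraries between 90 and 98. The median signed log2 ratio of the chosen genes was -0.057 in library 1, where that of the whole range was -0.040. It was -0.043 in library 8 (range -0.0078), 0.053 in library 2 (range 0.013) and 0.040 in library 10 (range 0.017).

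**Figure D4:**
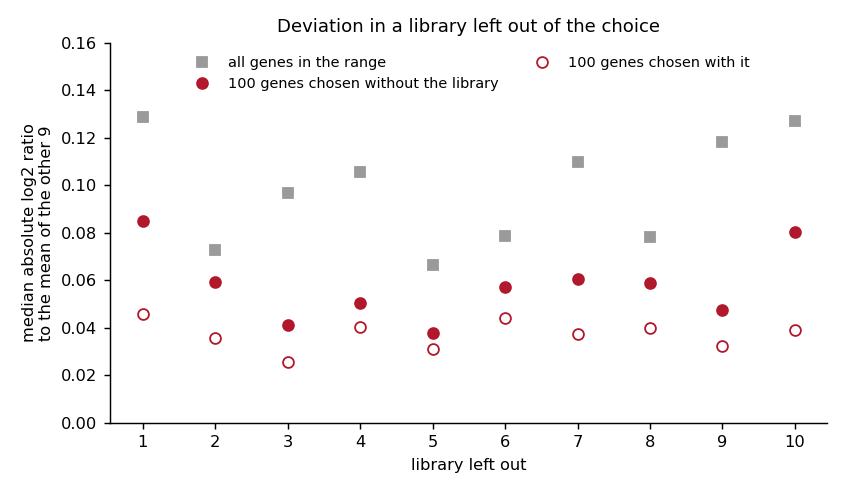
Median absolute log2 ratio of 1 library to the mean of the other 9, by library, for the 100 genes chosen without that library (filled red), the 100 genes chosen with all 10 libraries (open red) and all genes of the range (grey squares). Filled red points lie below the grey squares and above the open red points in each of the 10 libraries, with medians of 0.0581, 0.101 and 0.0382.

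Which genes made the list depended on the libraries at hand. Between 65 and 85 of the 100 genes were chosen again when 1 library was left out, with the fewest without library 10 (65) and without library 1 (69). A total of 51 genes were chosen in each of the 10 choices, of which 48 stood in places 1 to 50 and 3 in places 51 to 100. In all, 260 genes were chosen at least once, and each of the 100 was chosen in at least 2 of the 10. Without libraries 1 and 7 together, a choice made once the data were known, 56 of the 100 were chosen again.

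The list also depended on what a library is scaled to. By DESeq2 fewer genes were chosen again than without any 1 library (at least 65). By TMM that held only with the limit of 1 CPM described below. By TMM factors of edgeR, computed on the 17951 genes averaging 1 CPM or more, 53 of the 100 genes were chosen again, by DESeq2 size factors 51 and by the upper quartile 82. The factors were first computed on all listed genes, which gave 70, 60 and 78 in the same order, and the limit of 1 CPM was set after those results had been seen. With that limit the TMM and DESeq2 choices shared 90 of 100 genes with each other. A total of 48 genes were chosen under all 4 scalings, the library total included. The steadiest gene by library total, Nfu_g_1_014920, fell to place 34 by TMM with a CV of 3.13% and to place 28 by DESeq2 with 3.09%, and it was at place 3 by upper quartile with 2.18%. In contrast Nfu_g_1_011404 was at places 6, 11 and 2, with a CV of 2.26%, 2.55% and 2.06%. The worst place that any of the 100 genes took in the range was 505 by TMM, 514 by DESeq2 and 203 by upper quartile, not necessarily for the same gene. The median CV of the same 100 genes was 3.72%, 3.77% and 3.36% in that order, against 3.46% by library total. The lowest CV of the range was 1.27%, 1.39% and 1.65% in the same order. Relative to the library total, TMM ran from -2.87% in library 4 to 2.16% in library 10. Its SD over libraries was 1.97 percentage points, next to a CV of 1.87% of the steadiest gene by library total. In libraries 1 to 5 the TMM factor lay between -2.87% and -0.0682%, and the DESeq2 factor between -2.93% and -0.708%. In libraries 6 to 10 the TMM factor lay between 1.16% and 2.16%, and the DESeq2 factor between 1.24% and 2.44%. For TMM this split needs the limit of 1 CPM. With all listed genes, on a scale with a geometric mean of 1, TMM was 0.912 in library 1 (total 0.909). In library 8 it was 1.077 (total 1.079), so the 2 sets of libraries overlapped. For DESeq2 the split was also present with all listed genes. The upper quartile factor, with the limit, was 0.0667% in library 2 and 0.116% in library 8. The cause of the split by library order was not tested.

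A geometric mean over the 100 genes can itself serve as a scale. Since the rule took genes with a steady share of the library total, their geometric mean had to stay near that total, and the values are a description. It departed from its own average by between -1.61% (library 8) and 1.69% (library 2), with an SD of 1.02 percentage points over libraries, while that of the other 2262 genes of the range departed by between -3.23% (library 7) and 2.0% (library 5), with an SD of 1.75. Scaled by their own geometric mean the 100 genes had a median CV of 3.23%, against 3.46% by library total. For the other genes of the range the median CV was 8.37% with that scale and 8.46% with library totals.

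**Figure D5:**
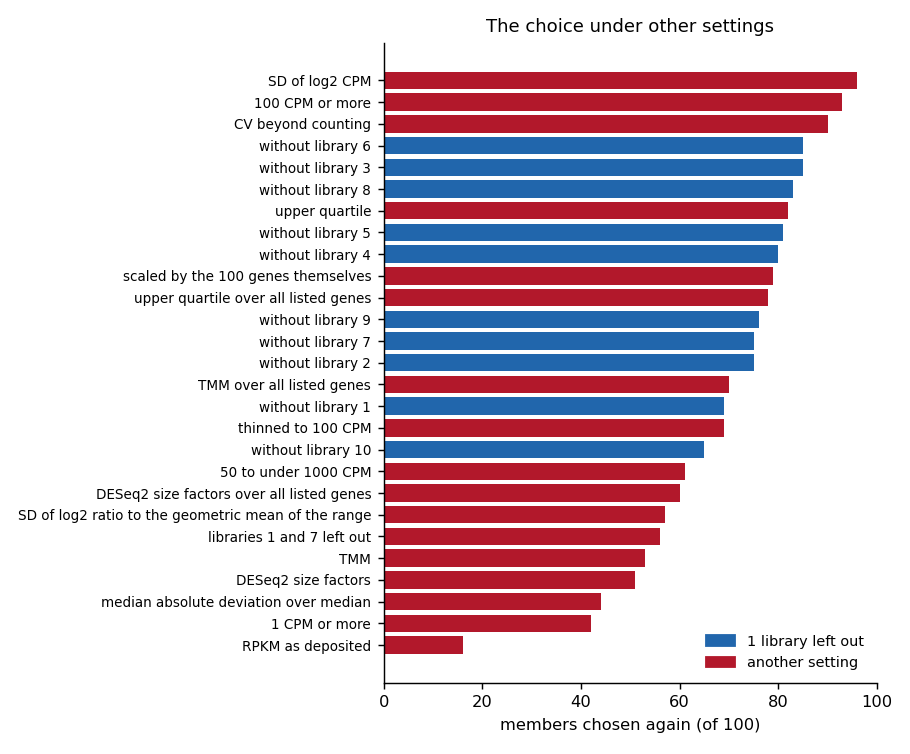
Number of the 100 genes chosen again under other settings of the rule; blue bars leave out 1 library and red bars change the scaling, the measure of spread, the range of abundance, the depth, the libraries or the values. The count runs from 96 with the SD of log2 CPM to 16 with the deposited RPKM.

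By most of the pairwise correlations below, though not by all, the 100 genes were less correlated with each other than other genes of their abundance were. The first 2 principal components of log2 CPM held 21.2% and 20.1% of the variance of the 100 genes. In the other 2262 genes of the range they held 39.0% and 30.1%. Along the first 2 components of those other genes lay 30.2% of the variance of the 100 genes, against 69.1% of the variance of the others. Genes were centred and not scaled for these shares, so genes of large spread weigh most, and the CV in the range reached 169%. The shares therefore do not show how many genes vary together. The median absolute correlation between pairs was 0.270 in the 100 genes (4950 pairs, n = 10 libraries) and 0.417 among the others. Pairs with r over 0.8 made up 1.11% of the pairs of the 100 genes and 5.64% among the others, and pairs with r under -0.8 made up 0.263% and 3.43%. The mean correlation between pairs went the other way, at 0.0835 in the 100 genes and 0.0246 among the others. The median absolute correlation with the first component of the others was nearly the same, 0.310 and 0.304. With their second component it was 0.294 and 0.596. Genes with large shared swings have a high CV and were left out by the rule, so the lower values in the 100 genes follow in part from the choice. Counting error was also a larger part of their variance, which was 5.25 times the counting variance in the median gene of the list. In the median gene of the range it was 33.4 times. The part of counting error in the lower correlations was not tested.

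Gene length was not used by the rule. Lengths came from the deposited counts and RPKM (counts per kilobase of gene and per 1000000 counts) and were recovered for all 100 genes and for 2360 of the 2362 genes of the range. The median length of the 100 was 4314.5 bp, with quartiles at 2954.5 and 5894.75 bp, against a median of 4989.5 bp and quartiles at 2749.5 and 7620.75 bp in the range. In 5 classes of length with 472 genes of the range each, from the shortest to the longest, lay 18, 25, 32, 12 and 13 of the 100 genes. The class of the longest genes, over 8275 bp, had a median CV of 10.7%, and the other 4 had between 7.44% and 8.21%. No test over genes is given, since genes are not independent replicates.

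The shortest of the 100 genes, at place 11, was 372 bp long. It had 557 CPM in its lowest library, a median of 585 CPM and 612 CPM in its highest, which per length made it the most abundant of the list at 1568 ± 41.0 RPKM with own library totals (SD, n = 10). The longest, at place 12, was 12303 bp long, with 194, 205 and 212 CPM and 16.6 ± 0.459 RPKM. Their CVs, 2.61% and 2.76%, are neighbours in the ranking by CV that made the list, so that likeness says nothing about length. Over the list, levels per length ran from 11.4 to 1568 RPKM with a median of 38.7 RPKM, against a median of 35.2 RPKM over the range.

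Short and long genes of the list leaned in different directions in some libraries. The 25 shortest genes (372 to 2875 bp) had a median deviation from their own mean of 2.13% in library 7 and -2.19% in library 6, and the 25 longest (5960 to 12303 bp) of -1.25% and 2.03%. In library 6, 4 of the 25 shortest and 17 of the 25 longest were above their own mean, and in library 7 17 and 8. Of the other short and long genes of the range, 42.2% and 63.4% were above in library 6, and 68.8% and 22.4% in library 7. In library 1 the order was as in library 7, with 15 of the shortest and 5 of the longest above (32.6% and 57.0% of the others). Among other genes of the range with these lengths the deviations in library 7 were 3.88% (602 short genes) and -8.43% (916 long genes), and in library 9 5.19% and -7.35%, where the 25 shortest and 25 longest of the list had 1.95% and -0.546%. In library 6 the other short genes were at -1.35% and the other long genes at 2.67%, the same order as in the list. In library 1 the other short genes were at -5.66% and the other long genes at 2.05%, the opposite order to the list. These sets of 25 were formed after the data had been seen, 11 of the 25 shortest genes are also among the 25 most abundant, and the part of length or abundance in these deviations was not tested.

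The steadiness of these genes cannot be read from the deposited RPKM. In the 100 genes, the length implied by count, RPKM and the total of the same library differed between libraries with a median CV of 11.01%. When the totals were taken in turn from row to row through the table, column by column, that CV fell to 0.000682%, and to at most 0.00264% in any of the 100 genes. The deposited RPKM of the 100 genes lay at 0.813 to 1.23 times those computed with the total of the same library. Their CV in the deposited RPKM ran from 4.86% to 17.0%, with a median of 11.5%, against 1.87% to 3.81% in CPM. Ranked by the CV of deposited RPKM, the 100 genes took places from 2 to 1689 among the 2362 genes, with a median place of 532.5, and 16 of them were among the first 100. The steadiest gene, Nfu_g_1_014920, had deposited values between 84.0 and 125 RPKM, where own totals give 104 ± 1.95 RPKM (SD, n = 10). Comparisons between libraries here rest on the counts.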

How the data were processed

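Libraries of brain RNA were made with the TruSeq RNA v2 kit of Illumina, per the labels' protocols. STAR 2.4.1d, featureCounts 1.4.6-p4 and bcl2fastq 1.8.4 are listed, per the submitters' processing notes. The sources used here give no genome build, annotation, counting options or strand, so genes that share reads with copies or neighbours are uncertain. The authors deposited raw counts per gene and RPKM per gene, with a column for each library. Columns were matched by sample title, and 0 were left out. Libraries were numbered 1 to 10 in accession order, as names only.

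CPM, the CV and the counting CV (from the mean level and the library totals) were computed with numpy 2.4.6 and pandas 2.3.3 (Python 3.11.15). Scaling factors came from edgeR 4.0.16 and DESeq2 1.42.0 in R 4.3.3. They used genes averaging 1 CPM or more, a limit set after the choices made with all listed genes had been seen. Lengths used genes with at least 50 counts in every library. The steps were checked on simulated counts in which the planted steady genes stood clearly apart from the rest. The real list has no such edge, so that check covers the computation and not the choice of genes. No comparison was tested, since the rule used the spread itself; Dixon's criterion was applied to each gene as a description, on the same values. The genes, lists and settings were chosen with earlier results of these data known. Named genes are the 2 of lowest CV and the 2 of highest mean. Other scalings, measures of spread, ranges of abundance, depths and values were tried, and each library was left out in turn. Gene lists and cell type markers were not evaluated, for lack of names.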

Additional observations from a re-analysis of the deposited data

How the results depend on the processing

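Removal of libraries 1 and 7 and scaling by the genes themselves were chosen after seeing the data, as was the limit of 1 CPM on genes used for scaling factors. Of the 100 genes, 53 were chosen again by TMM and 51 by DESeq2 size factors. The SD of the log2 ratio to the geometric mean of the range kept 57. That geometric mean is a scale that replaces the library total. The median absolute deviation over the median kept 44, the range from 50 to under 1000 CPM 61 and that from 1 CPM up 42. Without libraries 1 and 7, 56 were kept, and by deposited RPKM 16. The wider ranges admit other genes by construction. With factors from all listed genes TMM kept 70, DESeq2 60 and the upper quartile 78, against 82 for the upper quartile with the limit. Scaling by the 100 genes themselves kept 79, the SD of log2 CPM 96, counts thinned to 100 CPM 69, the CV beyond counting 90 and 100 CPM or more 93. Without each library in turn 65 to 85 were kept. A total of 12 genes were chosen under all of the 3 other scalings with the limit and the 8 other rules for measure, range or depth that used all libraries, deposited RPKM and the scaling by the genes themselves left aside. The median CV of 3.46% became 11.5% for the same 100 genes in deposited RPKM. The other CVs here, and the counting variances, lengths and held-out deviations below, are of 100 genes chosen anew under each setting. Without libraries 1 and 7 the median CV of those genes was 2.99%, and the CV of the 100th gene was 3.42%. Without each library in turn the median CV was 3.11% to 3.46%. The number of genes at or below the counting variance was 1 by TMM, 1 without libraries 1 and 7 and 0 to 1 without each library in turn, and 0 under the other scalings. The causes were not tested. The median length was between 3948.5 and 4827 bp under other scalings and without libraries. The held-out deviation, run under the 4 scalings, was between 0.0499 and 0.0581. No paired analysis was possible because all libraries form 1 group. At these totals counting error gives a CV of up to 1.99% in the range, which limits how low a spread can be seen.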
